A study of Mus musculus with 3 samples.

Results

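Fibroblast growth factors (FGFs) are secreted signals that bind receptor tyrosine kinases at the cell surface together with heparan sulfate. The bound receptors pass the signal through the adaptor FRS2 to the RAS-MAPK cascade, and the Sprouty proteins, which are themselves made in response to FGF, dampen it. In the early mouse head, FGF8 from the anterior neural ridge and from the boundary of midbrain and hindbrain patterns the forebrain and the midbrain. The 10 genes described here are 4 ligands (*Fgf8*, *Fgf15*, *Fgf17* and *Fgf18*), 3 receptors (*Fgfr1*, *Fgfr2* and *Fgfr3*) and 3 Sprouty genes (*Spry1*, *Spry2* and *Spry4*). They were chosen by name, and all 10 were found among the 24062 gene symbols of the count tables.

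The study compared rostrums, the anterior part of the head, of E9 *tuft* embryos with those of the 3H1 Balb strain on which *tuft* arose, to find genes whose RNA differed in embryos with neural tube defects. The *tuft* embryos were homozygous for a spontaneous nonsense mutation of *Tet1*, which encodes a methylcytosine dioxygenase, and had curled neural folds, and the wild-type embryos came from the background strain. By the study's methods all embryos had 18 to 22 somites, whereas its results text gives a range that begins slightly lower. No treatment is listed. RNA of 3 embryos was pooled for each genotype, and each genotype is represented by 1 column of counts. Since GEO lists 2 *tuft* samples and 1 wild-type sample, which of the former gave the *tuft* counts is not known. No value below has a replicate, and every interval is a 95% interval for counting error, which does not cover differences between embryos or between library preparations. The tissue is a mixture of cell types, in which fewer cells of a type and less RNA per cell cannot be told apart.

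The wild-type library held 14251942 counts on genes and the *tuft* library 6433067. A count was found for 16914 of the gene symbols in wild type and for 11795 in *tuft*. Levels are given as counts per 1000000 gene counts (CPM), and a count of 0 allows up to 3 counts, which is 0.466 CPM in *tuft* and 0.21 CPM in wild type. Fold changes are *tuft* over wild type after TMM scaling (edgeR's trimmed mean of M-values), whose factor for *tuft* relative to wild type was 0.761. A gene was called when its fold change was at least 2 in either direction and its counting interval did not include 1. A gene at 0 in 1 library has no finite fold change and was called when its interval did not include 1, also where the fold with 3 counts in place of 0 was under 2. Where such a gene is said to be at least so many fold lower, *tuft* was set to 3 counts and the wild-type count was taken without error. Its counting interval, which covers both counts, reaches to smaller differences. The libraries differed broadly. Of 13979 genes with 10 or more counts over the pair of libraries, 61.2% were called, 21.2% as higher and 40.0% as lower in *tuft*. The median log2 fold change of these genes was -0.55, with quartiles at -3.25 and 0.78. At 4-fold, 29.5% were lower in *tuft*. Calls of lower genes were more frequent at low expression, with 74.3% of the 2842 genes under 3 CPM on average over both libraries after TMM scaling, 37.9% of the 3034 genes from 10 to 30 CPM and 13.7% of the 2303 genes at 100 CPM or more. *Tet1* itself had 435 counts in wild type and 32 in *tuft*, for a fold change of 0.214 (0.145 to 0.307).

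RefSeq promoter sequences of GRCm38.p6, the assembly to which mm10 corresponds, were at hand for *Fgf18*, *Fgfr2*, *Fgfr3*, *Spry1* and *Spry2*, and those of *Fgf8*, *Fgf15*, *Fgf17*, *Fgfr1* and *Spry4* were not used here. The 250 bases before the start of 4 genes are printed 5′ to 3′ on the strand of the gene, because the genes differed most in CpG content or shared it while their RNA differed. Capitals mark each CpG, a C followed by a G, the site of the methylation on which TET enzymes act. The windows lie at chr11:33147401-33147650 (minus strand) for *Fgf18*, chr7:130266809-130267058 (minus strand) for *Fgfr2*, chr3:37639697-37639946 (plus strand) for *Spry1* and chr14:105896820-105897069 (minus strand) for *Spry2*.
*Fgf18*: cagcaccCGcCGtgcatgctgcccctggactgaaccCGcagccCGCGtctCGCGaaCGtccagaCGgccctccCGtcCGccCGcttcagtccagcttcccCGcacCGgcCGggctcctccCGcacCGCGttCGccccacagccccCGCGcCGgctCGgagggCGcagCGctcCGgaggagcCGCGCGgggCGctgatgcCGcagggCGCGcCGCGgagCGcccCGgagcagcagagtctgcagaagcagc
*Fgfr2*: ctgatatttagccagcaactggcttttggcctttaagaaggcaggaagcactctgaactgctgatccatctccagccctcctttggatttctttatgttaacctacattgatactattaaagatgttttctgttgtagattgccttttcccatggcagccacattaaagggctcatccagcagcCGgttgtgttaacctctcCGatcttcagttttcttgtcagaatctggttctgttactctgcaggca
*Spry1*: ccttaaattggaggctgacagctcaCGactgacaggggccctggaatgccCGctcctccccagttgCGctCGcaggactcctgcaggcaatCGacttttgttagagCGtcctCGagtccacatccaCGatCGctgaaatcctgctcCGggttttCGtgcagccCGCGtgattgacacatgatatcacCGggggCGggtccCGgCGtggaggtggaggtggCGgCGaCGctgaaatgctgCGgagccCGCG
*Spry2*: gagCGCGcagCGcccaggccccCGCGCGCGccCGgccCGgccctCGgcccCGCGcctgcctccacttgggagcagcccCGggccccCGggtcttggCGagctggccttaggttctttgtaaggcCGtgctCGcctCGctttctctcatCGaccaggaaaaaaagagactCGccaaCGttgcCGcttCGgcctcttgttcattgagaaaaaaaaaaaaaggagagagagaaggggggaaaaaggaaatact

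The *Fgf18* window held 37 CpGs and that of *Fgfr2* held 2, against a median of 6 and quartiles of 2 and 16 over 32851 promoter windows of the same length. *Spry1* and *Spry2* held 23 each. The 2 windows of *Fgfr3*, which has 2 annotated starts, held 19 and 24. Whether CpG content goes with the fold changes was not tested, and the values are given for these 5 genes only. *Fgfr2* has 22 coding transcripts in the GENCODE M1 annotation, and its window need not lie at the start in use. *Fgf18*, *Fgfr2*, *Fgfr3* and *Spry1*, which were all called lower in *tuft*, covered both ends of the range, and *Spry2* was not called with as many CpGs as *Spry1*. The letters CCGGAA are a form of the site bound by ETS factors, such as the FGF targets ETV4 and ETV5. These letters were searched on both strands and found in none of the 6 windows, against 12.0% of all windows. Other forms of the site were not searched, so these windows may hold ETS sites. Methylation was not measured in these libraries.

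Of the 10 genes, *Fgf8* alone was called higher in *tuft*, whereas *Fgf15*, *Fgf18*, *Fgfr2*, *Fgfr3*, *Spry1* and *Spry4* were lower. *Fgf17*, *Fgfr1* and *Spry2* were not called. The 6 of 10 called lower stand against 40.0% of all tested genes, and the 1 of 10 called higher against 21.2%. The median log2 fold change of the 10 genes was -1.83, against -0.55 for all tested genes, and 6 of the 10 lay below that general median. Past 4-fold, 3 of the 10 were lower (*Fgf18*, *Fgfr3* and *Spry4*), close to the 29.5% of all tested genes, and none was higher, against 9.20% of all. With a limit of 1.5-fold, *Fgfr1* would join *Fgf8* as higher, against 28.2% of all tested genes. Each of the 3 classes held 1 gene that was not called and 2 that were called lower.

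**Figure D1:**
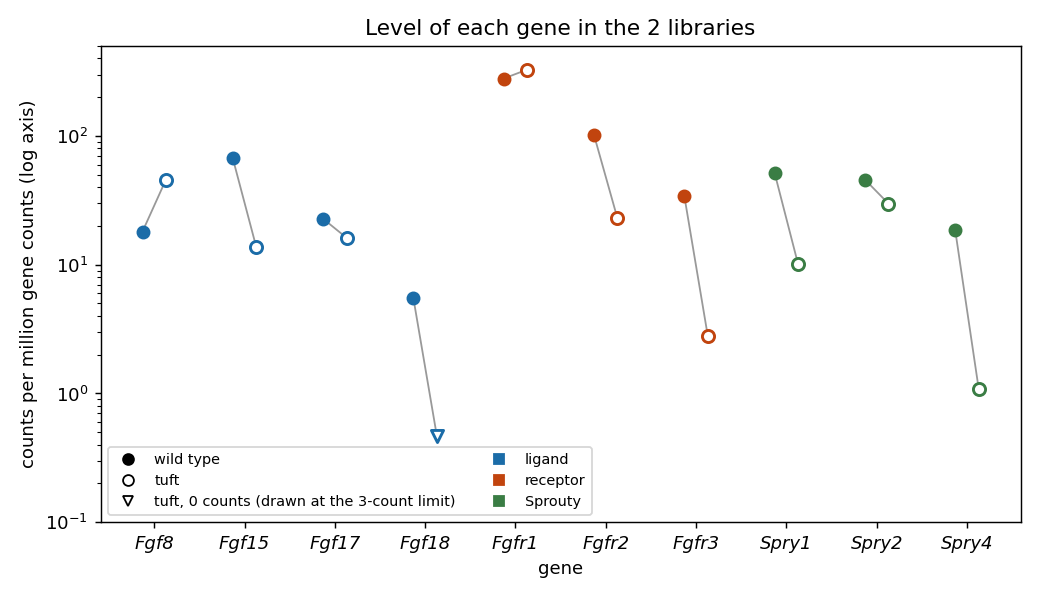
Level of each of the 10 genes, in CPM on a log axis, in wild type (filled) and *tuft* (open), with a line joining the 2 libraries. *Fgf8* goes up from 18.1 to 45.9 CPM, *Fgfr1* stays the most abundant gene at 279 and 327.5 CPM, and *Fgf18* is drawn at the 3-count limit of 0.466 CPM because it had no count in *tuft*.

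*Fgf8*, the ligand of the anterior neural ridge, lies on chromosome 19 from 45736491 to 45742941 (GRCm38, as for all positions below). It had 258 counts in wild type and 295 in *tuft*, more in *tuft* although fewer counts were made there. These counts are 18.1 and 45.9 CPM. The fold change was 3.33 (2.81 to 3.95). *Fgf8* was therefore the ligand that was higher in *tuft*, by more than counting error. Of the genes with a mean of 30 to 100 CPM, the range of *Fgf8*, 23.7% were called higher.

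*Fgf15*, which is expressed in the diencephalon and midbrain and answers to Hedgehog signals, lies on chromosome 7 from 144896532 to 144900953. It was the most abundant of the 4 ligands in wild type, with 953 counts, and had 88 in *tuft*, or 66.9 and 13.7 CPM. The fold change was 0.269 (0.214 to 0.335), so the gene was 3.72-fold lower. Among genes of its level, from 30 to 100 CPM, 23.1% were called lower.

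*Fgf17* and *Fgf18* belong to the same subfamily as *Fgf8* and are expressed with it at the boundary of midbrain and hindbrain. *Fgf17* (chromosome 14, 70636203 to 70642268) had 324 counts in wild type and 104 in *tuft*, or 22.7 and 16.2 CPM. Its fold change was 0.935 with an interval that includes 1 (0.742 to 1.17). *Fgf18* (chromosome 11, 33116970 to 33147400) had 78 counts in wild type, which is 5.47 CPM, and none in *tuft*. With 3 counts in *tuft* it would be 8.93-fold lower, and its counting interval reached up to a fold change of 0.141, or 7.09-fold lower. A count of 0 in *tuft* was frequent among genes of this wild-type level, being found for 34.1% of the 2472 genes with 39 to 156 wild-type counts. The 3 genes of this subfamily thus went apart, with *Fgf8* higher, *Fgf17* near level and *Fgf18* without a count.

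**Figure D2:**
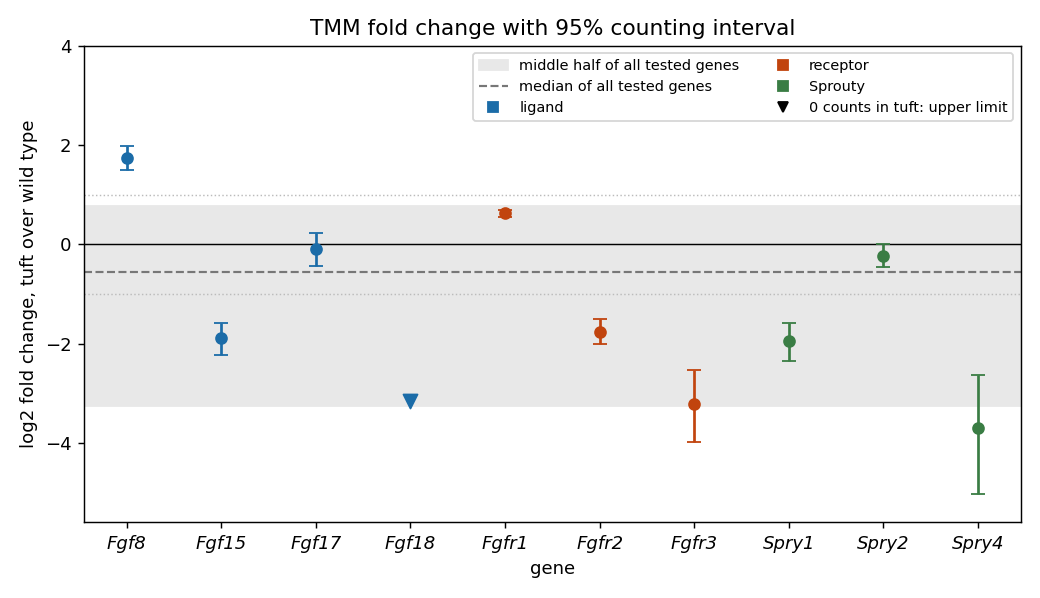
TMM fold change of each gene, *tuft* over wild type on the log2 scale, with bars for the 95% counting interval. The grey band spans the quartiles of all tested genes (-3.25 to 0.78), the dashed line their median (-0.55) and the dotted lines the 2-fold limits. *Fgf8* lies above the band at 1.74 and *Spry4* below it at -3.70. The triangle of *Fgf18*, which had no count in *tuft*, is drawn at -3.16, the value with 3 counts there.

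*Fgfr1*, the receptor expressed most widely in the neural plate and head mesenchyme, lies on chromosome 8 from 25518759 to 25575718. It had 3979 counts in wild type and 2107 in *tuft*, or 279 and 327.5 CPM. The fold change of 1.54 (1.46 to 1.63) was above 1 by more than counting error and under the 2-fold limit. Of the genes at 100 CPM or more, where *Fgfr1* falls, 32.6% were called higher and 13.7% lower.

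*Fgfr2* (chromosome 7, 130162451 to 130266808), which is strong in surface ectoderm and ventricular neuroepithelium, had 1448 counts in wild type and 147 in *tuft*, or 101.6 and 22.9 CPM. Its fold change was 0.296 (0.248 to 0.351), or 3.38-fold lower. *Fgfr3* (chromosome 5, 33721724 to 33737068), which is expressed in neuroepithelium and later in cartilage, had 487 and 18 counts, or 34.2 and 2.80 CPM. Its fold change was 0.108 (0.0633 to 0.172), or 9.29-fold lower. Both receptors were lower by more than counting error, *Fgfr3* more so than *Fgfr2*. The ratio of *Fgfr2* to *Fgfr3* counts was 2.97 in wild type and 8.17 in *tuft*, a 2.75-fold difference (1.66 to 4.81).

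*Spry1*, *Spry2* and *Spry4* encode intracellular inhibitors of receptor tyrosine kinase signaling and are widely used as readouts of FGF activity. *Spry1* (chromosome 3, 37639947 to 37644599) had 735 counts in wild type and 65 in *tuft*, or 51.6 and 10.1 CPM. The fold change was 0.258 (0.197 to 0.332), or 3.88-fold lower. *Spry2* (chromosome 14, 105891947 to 105896819) had 653 and 192 counts, or 45.8 and 29.8 CPM, and its fold change of 0.856 had an interval that reached just past 1 (0.725 to 1.01). *Spry4* (chromosome 18, 38586247 to 38601347) had 264 and 7 counts, or 18.5 and 1.09 CPM. Its fold change was 0.0772 (0.0307 to 0.161), the lowest of the 9 genes with counts in both libraries. In its range of 3 to 10 CPM, 56.8% of the genes were called lower, and from 10 to 30 CPM, where *Spry1*, *Fgfr3* and *Fgf17* fall, 37.9% were.

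The positions of some of the 10 genes overlap those of noncoding genes, compared from start to end of each gene without regard to exons or strand. In RefSeq, *Fgf15* overlaps the noncoding gene *Gm26793*, *Fgf17* overlaps *Gm38605* and *Fgfr1* overlaps *Gm31288* and *Gm16159*. None of these 4 symbols is in the count tables, and whether strand was used in counting is not given in the sources used here. Whether any exons are shared was not checked. Where they are, reads of such transcripts cannot be told from those of the FGF genes.

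The make-up of each class within a library, given here by counts and not per length, does not depend on the normalization. Of the counts on the 4 ligands, *Fgf8* held 16.0% (14.2 to 17.9) of 1613 in wild type and 60.6% (56.1 to 64.9) of 487 in *tuft*. *Fgf15* held 59.1% (56.6 to 61.5) and 18.1% (14.8 to 21.8), so the leading ligand was *Fgf15* in wild type and *Fgf8* in *tuft*. *Fgf17* held 20.1% (18.2 to 22.1) and 21.4% (17.8 to 25.3), within counting error of each other. *Fgf18* held 4.84% in wild type (3.84 to 5.999) and 0 of 487 in *tuft* (0 to 0.755), where 3 counts would be a share of 0.616%. The ratio of *Fgf8* to *Fgf15* was 0.271 in wild type and 3.35 in *tuft*, a 12.4-fold difference (9.33 to 16.5), and that of *Fgf8* to *Fgf17* differed 3.56-fold (2.68 to 4.75).

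Of the counts on the 3 receptors, *Fgfr1* held 67.3% (66.1 to 68.5) of 5914 in wild type and 92.7% (91.6 to 93.8) of 2272 in *tuft*. *Fgfr2* held 24.5% (23.4 to 25.6) and 6.47% (5.49 to 7.56), and *Fgfr3* held 8.23% (7.55 to 8.96) and 0.792% (0.470 to 1.25). The receptor RNA of the *tuft* library was thus nearly all *Fgfr1*. Summed over the 3 genes it was 415 CPM in wild type and 353 CPM in *tuft*, and 361.9 and 404.9 CPM after TMM scaling, so the direction of the sum turns with the scaling.

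Of the counts on the Sprouty genes, *Spry1* held 44.5% (42.1 to 46.9) of 1652 in wild type and 24.6% (19.5 to 30.3) of 264 in *tuft*. *Spry2* held 39.5% (37.2 to 41.9) and 72.7% (66.9 to 78.0). *Spry4* held 16.0% (14.2 to 17.8) and 2.65% (1.07 to 5.39). By counts *Spry1* led in wild type and *Spry2* in *tuft*. Per length of the longest transcript *Spry2* led in both libraries (22.0 against 18.6 CPM per kb in wild type). With the shortest annotated transcript, *Spry1* came before *Spry2* in wild type (ranks 6 and 7 of the FGF genes). In *tuft*, *Spry2* still led with that length (rank 4, against rank 7 for *Spry1*). The ratio of *Spry2* to *Spry1* differed 3.32-fold (2.44 to 4.56). The class as a whole had 115.9 CPM in wild type and 41.0 CPM in *tuft* (101.1 and 47.0 after TMM scaling), and the ligands together 113 and 75.7 CPM (98.7 and 86.8).

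**Figure D3:**
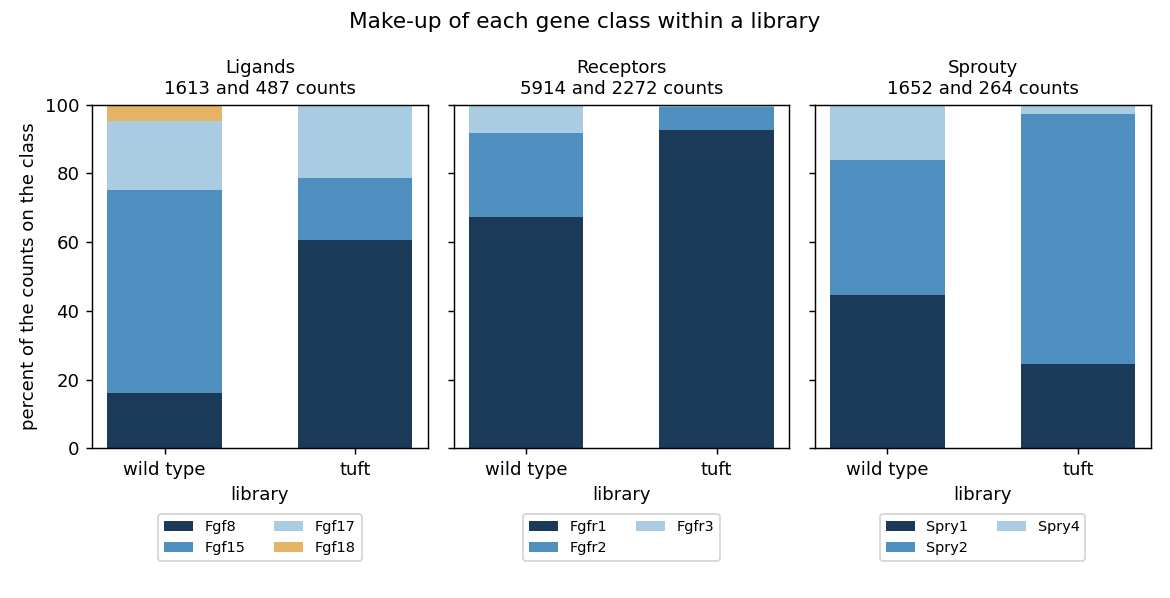
Share of each gene, in percent, in the counts on its class, for wild type and *tuft*; the numbers above the bars are the counts on the class in wild type and *tuft*. *Fgf8* grows from 16.0% to 60.6% of the ligands, *Fgfr1* from 67.3% to 92.7% of the receptors and *Spry2* from 39.5% to 72.7% of the Sprouty counts.

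Levels of different genes were compared per kilobase of the longest coding transcript in GENCODE M1. In wild type *Fgfr1* led with 56.0 CPM per kb, followed by *Fgf15* (37.0), *Fgfr2* (22.9) and *Spry2* (22.0). *Spry1* (18.6), *Fgf8* (15.5), *Fgf17* (13.5), *Fgfr3* (8.10), *Fgf18* (5.04) and *Spry4* (4.04) came next. By counting error, the neighbours *Fgfr2* and *Spry2*, *Spry1* and *Fgf8*, *Fgf8* and *Fgf17*, and *Fgf18* and *Spry4* had overlapping intervals. In *tuft* *Fgfr1* led again with 65.7 CPM per kb, and *Fgf8* was second with 39.3. *Spry2* (14.3), *Fgf17* (9.58), *Fgf15* (7.56), *Fgfr2* (5.16) and *Spry1* (3.64) followed, of which *Fgf17* and *Fgf15* overlapped, as did *Fgfr2* and *Spry1*. *Fgfr3* (0.663) and *Spry4* (0.237) were low, *Fgf18* had no count, and these 3 overlapped each with its neighbour. *Fgf8* moved from rank 6 to rank 2, and *Fgf15* from rank 2 to rank 5.

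**Figure D4:**
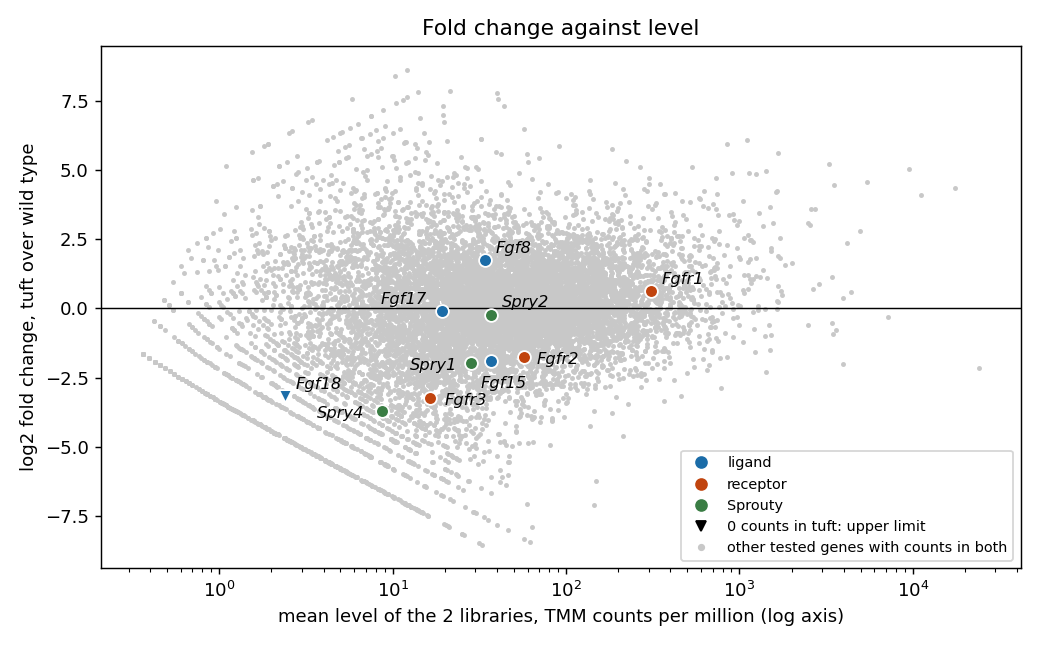
Log2 fold change of each gene against its mean level in the 2 libraries after TMM scaling, in CPM on a log axis, with the other tested genes that had counts in both libraries in grey. The 10 genes lie within the cloud, with *Fgf18* under 3 CPM, *Spry4* between 3 and 10 CPM and *Fgfr1* above 100 CPM; of the tested genes, 74.3% were called lower under 3 CPM and 13.7% at 100 CPM or more.

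A list of 80 other genes of the FGF pathway gives the setting. Of these, 67 passed the minimum of 10 counts, 15 were called higher, 24 were called lower and 28 were not called, against 21.2% higher and 40.0% lower of all tested genes. The median log2 fold change of the 67 was -0.46, close to the -0.55 of all tested genes, and -0.33 with the 15 genes without a count in *tuft* set to 3 counts. Those 15 genes passed the minimum by their wild-type counts alone and so could not be called higher. Like the 10 genes above, the list was made with earlier results of these data known.

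Other ligands were scarce. Of 18, 10 passed the minimum, and 7 of these had no count in *tuft*. Those 7 passed by their wild-type counts alone and so could not be called higher, which limits what the counts of calls show. Among the 10, 2 were called higher and 6 lower, against 21.2% and 40.0% of all tested genes. *Fgf13*, an intracellular FGF that does not act as a secreted signal, was the highest with 219 counts in wild type and 203 in *tuft*, for a fold change of 2.70 (2.22 to 3.28). *Fgf9* was also called higher, from 49 and 38 counts (2.26-fold, 1.44 to 3.52), and *Fgf3* had 64 and 34 counts (1.55-fold, 0.989 to 2.38). *Fgf10*, a ligand of the mesenchyme that acts on *Fgfr2* isoforms of epithelia, had 40 counts in wild type and none in *tuft*, at least 4.58-fold lower.

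Of the 7 other receptors and membrane partners, none was called higher and 4 of the 6 that passed the minimum were called lower, against 21.2% and 40.0% of all tested genes. *Fgfr4*, the fourth kinase receptor, had 67 counts in wild type and none in *tuft*, at least 7.67-fold lower. *Klb*, a co-receptor of endocrine FGFs, had 161 and none, at least 18.4-fold lower. *Fgfrl1*, a receptor without a kinase domain, had 474 and 106 counts and a fold change of 0.651 (0.522 to 0.805). *Flrt3*, a membrane protein that binds FGF receptors, was the highest of the group, with 1039 and 258 counts and a fold change of 0.723 (0.629 to 0.83).

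Among the 12 adaptors, 7 were called lower and 1 higher, against 40.0% and 21.2% of all tested genes. *Frs2*, which couples the receptors to the cascade, had 525 counts in wild type and none in *tuft*, at least 60.1-fold lower, and 3.41% of the 4632 genes with 263 to 1050 wild-type counts were likewise at 0 there. *Ptpn11*, the phosphatase that FRS2 recruits, had 4413 and 116 counts, for a fold change of 0.0765 (0.0631 to 0.0921). *Grb2*, which links FRS2 to the exchange factor SOS, had 1332 and 275 counts and a fold change of 0.601 (0.526 to 0.685). *Plcg1*, the phospholipase that binds the receptors directly, went the other way with 3349 and 5437 counts, for a fold change of 4.73 (4.53 to 4.94).

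Of the 21 tested genes for heparan sulfate, its carrier proteins and FGF-binding proteins, 7 were called higher and 5 lower. The shares over all tested genes were 21.2% and 40.0%. The 7 were *Hs6st2*, *Sdc1*, *Sdc2*, *Sdc3*, *Gpc2*, *Gpc4* and *Gpc6*, of which 6 encode carrier proteins (syndecans and glypicans). *Sdc3* was the highest with a fold change of 3.39 (3.15 to 3.64). *Gpc3* (6354 and 2311 counts, 1.06-fold) and the sulfotransferase gene *Hs2st1* (1117 and 521 counts, 1.36-fold) were not called. *Sulf1*, which removes sulfate groups from the chains, had 2523 and 136 counts, for a fold change of 0.157 (0.131 to 0.187), and *Glce*, the epimerase of the chain, had 434 and none, at least 49.7-fold lower. *Sdc4*, a syndecan, had 463 counts in wild type and 1 in *tuft*, a ratio of 0.00629 (0.000159 to 0.0352), and did not follow the other 3 syndecans.

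Genes that FGF signaling is known to induce did not share a direction. Of the 9 other feedback inhibitors tested, *Spred1* (3.59-fold, 3.27 to 3.95) and *Spred3* (3.13-fold, 2.77 to 3.54) were called higher and none was called lower. Over all tested genes these shares were 21.2% and 40.0%. *Dusp6*, a phosphatase of ERK that is induced by FGF, had 2333 counts in wild type and 1586 in *tuft* and lay just under the limit (1.98-fold, 1.86 to 2.11). *Il17rd* (2490 and 621 counts) was the lowest of the group at 0.726 (0.664 to 0.793), and *Spred2* was at 0.844 (0.722 to 0.982). Among the target genes, *Etv4* had 179 and 223 counts, for a fold change of 3.63 (2.97 to 4.44), whereas *Etv5* had 1101 and 192, for a fold change of 0.508 (0.433 to 0.592) that lay just short of the limit. The ratio of *Etv4* to *Etv5* was 0.163 in wild type and 1.16 in *tuft*, a 7.13-fold difference (5.52 to 9.24). *Etv1* was the highest of the 9 targets tested (5.26-fold, 3.33 to 8.44, from 31 and 56 counts) and *Fos* the lowest (18 counts and none, at least 2.06-fold lower). In all, 3 targets were called higher and 2 lower, against 21.2% and 40.0% of all tested genes.

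**Figure D5:**
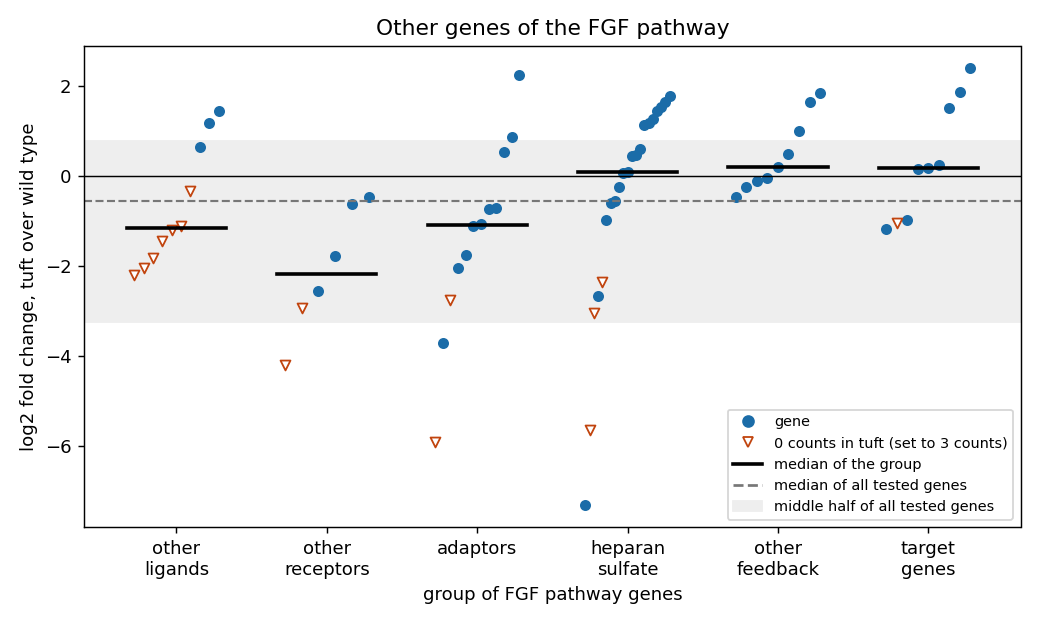
Log2 fold change of the other FGF pathway genes by group, with 1 point per tested gene, black bars at the group medians and triangles for genes without a count in *tuft*, drawn with *tuft* at 3 counts. The medians run from -2.18 for the other receptors and -1.16 for the other ligands to 0.19 for the other feedback genes; the dashed line is the median of all tested genes (-0.55).

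Markers of regions and cell types moved between the libraries as well. The calls in each list stand against 21.2% higher and 40.0% lower of all tested genes. The dissected tissue had forebrain markers in both, with 665 CPM, without TMM scaling, summed over 10 genes in wild type and 1004 in *tuft*. Of these, 4 were called higher (*Six3*, *Emx2*, *Nkx2-1* and *Sp8*) and 2 lower (*Rax*, with 389 and 2 counts, and *Hesx1*, at 0 in *tuft*). The 10 markers of the midbrain and its boundary with the hindbrain, where *Fgf8*, *Fgf17* and *Fgf18* are expressed, summed to 99.6 and 212 CPM. *Otx1* alone gave 63.9 and 97.3 CPM of these sums, which are thus not those of boundary genes only. Of the 10, 6 were called higher, among them *Otx1* and *En1* (2 and 70 counts). The other 4 had no count in *tuft* (*Pax2*, *Pax5*, *Wnt1* and *Gbx2*). Tail bud markers (8 genes, 10.6 and 3.42 CPM) and heart markers (8 genes, 7.79 and 0.311 CPM) were near absent, with 5 and 7 genes at 0 in *tuft* and 3 and 2 called lower. Most of the tail bud sums was *Wnt3a*, at 8.35 and 2.95 CPM. Neural crest and mesenchyme markers (10 genes, 373 and 625 CPM) and surface ectoderm markers (8 genes, 767 and 965 CPM, 1 higher and 1 lower) were present in both. Of the neural crest and mesenchyme markers, 3 were called higher (*Sox10* 11.1-fold, *Dlx2* 7.07-fold and *Twist1* 3.14-fold). The 2 called lower, *Prrx2* and *Foxd3*, were at 0 in *tuft*. Of the 7 endothelial markers, summing to 310.3 and 134.5 CPM, 2 were called higher and 4 lower, with *Pecam1* at 0 in *tuft*. Blood markers (8 genes, 3206 and 35525 CPM) had 3 higher and 3 lower, with *Gata1* and *Klf1* at 0 in *tuft* and *Hba-a1* at 0 in both. Yolk sac markers (8 genes, 2054 and 277 CPM) had 1 higher and 6 lower, with *Apoa4* at 0 in *tuft*. The part of these differences in the values of the FGF genes was not tested.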

How the data were processed

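RNA of 3 embryos was pooled per genotype, enriched for poly-A and sequenced on an Ion Proton. The authors trimmed the reads with PRINSEQ, aligned them to mm10 with TopHat2 2.0.14 and Bowtie2 2.2.5, and deposited raw counts per gene symbol from htseq-count. The HTSeq version, overlap mode and strand setting are not given in the sources used here. The 5 summary lines of each table were left out of totals. Alignments that were not unique made up 51.4% of all entries in wild type and 59.2% in *tuft*, and 37.3% and 27.4% were counts on genes.

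Each count column was matched to its genotype by the name of its table. With 1 column per genotype no test across genes and no p-value is possible. The study called genes with NOISeq-sim, which draws artificial libraries from a single column, and this step was not repeated here. The TMM factor came from edgeR 4.0.16 in R 4.3.3, and fold changes with Clopper-Pearson intervals came from Python 3.11.15 with scipy 1.17.1, numpy 2.4.6 and pandas 2.3.3. Ratios between genes carry the conditional exact interval of the odds ratio, and levels per kb an exact Poisson interval. Gene positions and promoters are RefSeq's; transcript lengths came from GENCODE M1 and not, as planned, from RefSeq. The reads carry no molecular identifiers. The procedure was checked on artificial counts with known folds. These held counting noise only and few changed genes, so the check does not cover differences as broad as those of this pair of libraries.

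All 10 FGF genes, *Tet1*, 18 further pathway genes chosen by name and the highest and lowest fold of each of 6 pathway lists are named (for ties at 0, the gene with the most wild-type counts); other names were added after their values were seen. The genes and lists were chosen with earlier results of these data known. Alternatives were 4 normalizations, fold limits of 1.5 and 4, other minima of counts, calls without the interval, another rule for genes at 0 (added after seeing the data) and the shortest transcript for the length. The result of 1 list of marker genes is not reported here.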

Additional observations from a re-analysis of the deposited data

How the results depend on the processing

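None of the 10 FGF genes changed direction under 4 other normalizations (library totals, median of ratios, upper quartile, and TMM without *Rn45s*, globin and mitochondrial genes), and their median log2 fold change ran from -2.22 to -1.78. Library totals alone shifted every gene by -0.39, the median of all tested genes included, and moved 7 of the 10 genes out of their counting interval. The number of genes on either side of the general median (4 above, 6 below) cannot change with the scaling. The calls depended on the fold limit. At 1.5-fold, 2 of the 10 genes were called higher, since *Fgfr1* joined *Fgf8*, against 28.2% of all tested genes. At 4-fold, 0 of the 10 were called higher and 3 lower, against 9.20% and 29.5% of all tested genes, and 2 of the other pathway genes were called higher; these changes, like that of all genes called higher from 21.2%, follow from the stricter limit. The other counts of called genes stayed within 1.5 times. With genes at 0 called only where the fold at 3 counts passed 2, chosen after seeing the data, 37.3% of all genes were lower and the counts of the 10 genes and of the other pathway genes were equal to those reported. With the shortest annotated transcript as length, 11 of 20 ranks per length moved, so these orders hold for the longest transcript only. No paired analysis was possible because the groups share 1 replicate number and 1 column of counts was analyzed per genotype. Low counts limit what is said of *Fgf18*, *Fgfr3* and *Spry4*, which had 0, 18 and 7 counts in *tuft*.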
